A study of Homo sapiens with 3 samples.

Results

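The expression profile of IMR-90 cells given SETD8 siRNA 2 was set against that of IMR-90 cells given a control siRNA, with 1 array each. IMR-90 is an established line of diploid human lung fibroblasts of fetal origin. All cultures were kept in DMEM-F12 with 10% serum and harvested 24 h after transfection with RNAiMAX. The control siRNA carried the label GL3, and a further culture received a different siRNA against the same target, SETD8 siRNA 1, whose array is given beside the main results. Every gene represented by a probe set with a single gene symbol was eligible for the comparison. The arrays named 19775 genes, of which 12307 passed a filter on low signal (a mean log2 signal of at least 5.39 over the 3 arrays, or about 42.0 on the linear scale) and were compared. Signals below a floor of 11.7 were raised to it before log2 was taken, so where an array lies at that floor the fold change is only a lower limit.

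SETD8, listed under its current symbol KMT5A, places the single methyl group on lysine 20 of histone H4, a mark that is laid down around mitosis and is needed for orderly licensing of replication origins and for chromosome compaction. Fibroblasts also have a contractile programme, driven by serum response factor (SRF) and by the cofactors YAP and TAZ, and a bone morphogenetic protein (BMP) pathway, in which ligands act through receptor kinases on SMAD1, SMAD5 and SMAD9 to turn on the ID genes and their own inhibitors. In the amino acid response, the kinase GCN2 (EIF2AK4) senses uncharged transfer RNA, and the factor ATF4 then drives genes for amino acid synthesis and import.

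With SETD8 siRNA 2, genes of mitosis and replication were lower almost throughout their lists, whereas cyclin D2 was 12.9-fold higher. Over the contractile, SRF and YAP, matrix and TGF-beta lists, 7 of 113 genes were at least 2-fold higher (6.19%) and 6 lower (5.31%). These shares were near the 4.46% and 6.65% of all genes, and the pooled median was 0.19. ANKRD1, and ACTC1, which was in no list, had large increases. Of the BMP target genes 9 of 20 were at least 2-fold higher, as were 6 of 15 BMP antagonists and feedback inhibitors, and SMAD1 was lower. These lists share members, and over all BMP lists 12 of 52 genes were at least 2-fold higher and 3 lower. Of the amino acid synthesis and one-carbon enzymes 6 of 18 were at least 2-fold lower, among them ASNS and PHGDH, and none of the aminoacyl tRNA synthetases was. Across all genes tested, 549 (4.46%) were at least 2-fold higher than the control and 818 (6.65%) at least 2-fold lower, and the median log2 fold change was -0.01 with an SD over genes of 0.70. At 4-fold, 94 genes (0.764%) were higher and 201 (1.63%) lower.

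With 1 array per siRNA there was no replicate check, so no p-value was computed, the number of arrays limited the precision, and the spread that cultures would show is unknown. The size of a change depended on signal. In the lowest quartile of signal among the genes tested 19.1% of genes passed 2-fold in either direction, against 13.1%, 7.70% and 4.52% in the next 3, and the 95th percentile of the absolute log2 change went from 1.87 in the lowest quartile to 0.96 in the highest. Of the genes called higher, 189 had a second probe set past the filter, which was higher in 176 and at least 2-fold higher in 92. For the genes called lower these counts were 308, 297 and 201.

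The target itself was modestly lower. The brightest probe set of KMT5A read 938.9 on the control array, 431.4 with siRNA 1 and 584.1 with siRNA 2, so that 62.2% of the control signal remained with siRNA 2 (log2 fold change -0.68). None of its 4 probe sets was 2-fold lower with siRNA 2, and all 4 were below the control.

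Fibroblast markers were bright on all arrays. Of 15 fibroblast markers 14 passed the filter, with a summed signal of 180321 in the control, 181372 with siRNA 1 and 192968 with siRNA 2, and a single one, S100A4 (log2 fold change 1.68), was past 2-fold with siRNA 2. Endothelial markers passed in 3 of 10 cases (summed signal 1360.0, 1540.3 and 2166.7 in the same order of arrays) and leukocyte markers in 2 of 10 (169.8, 203.8 and 140.3), and PTPRC, CDH5 and KDR did not pass. Epithelial markers passed in 5 of 15 cases, with summed signals of 3345.2, 7363.3 and 7082.3, and CDH1, KRT5 and GRHL2 did not pass. Among those 5, EHF, KRT8 and KRT18 were at least 2-fold higher with siRNA 2, at log2 fold changes of 5.42, 1.14 and 1.01 (0.98 for KRT18 with quantile normalization). That is 60.0% of very few genes, against 4.46% of all genes. EHF, at 13.9 in the control, passed only through the SETD8 siRNA arrays. With no filter on signal, 4 of the 15 were higher and 3 lower, and the median was 0.

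Promoter stretches of 4 genes are shown first, because they carry the letters to which the cell cycle and contractile results are later compared. They come from RefSeq on GRCh38.p14 and end at the base before the annotated start. In CCNB2 (mitotic cyclin B2, chr15:59105016-59105145, plus strand) and PLK1 (polo-like kinase, chr16:23678789-23678888, plus strand) capitals mark the cell cycle genes homology region (CHR) and CCAAT boxes, in MCM6 (a subunit of the replicative helicase, chr2:135876444-135876603, minus strand) they mark E2F sites, and in ACTC1 (cardiac alpha-actin, chr15:34795550-34795679, minus strand) a CArG box, the element that SRF binds, and a TATA box.
CCNB2: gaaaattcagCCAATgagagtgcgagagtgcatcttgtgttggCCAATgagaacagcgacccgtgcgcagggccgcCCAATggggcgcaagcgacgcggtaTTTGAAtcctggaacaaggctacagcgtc
PLK1: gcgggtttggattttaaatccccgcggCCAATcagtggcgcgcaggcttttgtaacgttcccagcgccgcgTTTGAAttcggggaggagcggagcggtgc
MCM6: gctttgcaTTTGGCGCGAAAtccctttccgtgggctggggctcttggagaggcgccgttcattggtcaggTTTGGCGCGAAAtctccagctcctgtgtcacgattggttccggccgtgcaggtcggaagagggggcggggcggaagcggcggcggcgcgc
ACTC1: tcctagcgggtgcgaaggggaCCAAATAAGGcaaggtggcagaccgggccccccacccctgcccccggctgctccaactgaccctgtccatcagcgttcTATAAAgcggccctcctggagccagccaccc
Counting the base before the start as -1, the CHR lay at -29 to -24 in both CCNB2 and PLK1. In MCM6 each capital run holds a pair of overlapping matches on opposite strands, at -152 to -145 with -148 to -141 and at -90 to -83 with -86 to -79.

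Mitotic genes were the most uniformly lower group. Among mitotic kinases, cyclins and their regulators, 31 of the 34 members tested were at least 2-fold lower with siRNA 2 and none was higher, with a median log2 fold change of -2.36. The kinetochore, spindle and cytokinesis list had 61 of 64 lower, none higher and a median of -2.35. On the SETD8 siRNA 1 array, which is compared with the same control array (5.48% of all genes at least 2-fold higher and 7.75% lower), 32 and 63 members were lower and the medians were -2.42 and -2.70. In a culture measured in bulk, fewer dividing cells and less of these transcripts per cell cannot be told apart.

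Single members show the size. The signal of CCNB1, the cyclin that activates CDK1 at mitotic entry, was 8748.9 in the control, 1412.1 with siRNA 1 and 1388.1 with siRNA 2, which is 6.30-fold lower with siRNA 2. BUB1B, a spindle checkpoint kinase, gave 2879.6, 231.3 and 296.8, and the centrosomal kinase NEK2 gave 3093.1, 335.1 and 314.2. On both SETD8 siRNA arrays these 3 genes were well under the control. PLK1 was dimmer, with 128.5, 46.3 and 26.6. KIFC1, a minus-end kinesin, had the lowest log2 fold change of these lists at -4.77, its signal being 666.7 in the control, 56.9 with siRNA 1 and 24.4 with siRNA 2. KIF20A, a kinesin of cytokinesis, came next at -3.96 (3239.5, 410.7 and 208.1). The members not past 2-fold were CDC25A (-0.81), ESPL1 (-0.32) and FZR1 (-0.08) in the first list, and DSN1 (-0.92), ZWILCH (-0.85) and NCAPD3 (-0.62) in the second. ESPL1 encodes separase, which cleaves cohesin at anaphase, and FZR1 the coactivator of the anaphase-promoting complex in G1.

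Genes of origin licensing and the replication fork were lower to a lesser extent, with 43 of 57 at least 2-fold lower, none higher and a median of -1.59. CDC45, which joins the helicase at firing origins, had the lowest value, at 555.4 in the control, 108.1 with siRNA 1 and 59.0 with siRNA 2 (9.41-fold lower with siRNA 2). CDT1, the licensing factor that SETD8 is linked to through shared destruction at replication forks, read 1364.5, 63.6 and 217.3, so its log2 fold change was -2.65 with siRNA 2 and -4.42 with siRNA 1. MCM2 and MCM6 had log2 fold changes of -2.33 and -1.77 (-2.52 and -2.28 with siRNA 1). By contrast, the origin recognition subunits ORC2, ORC3, ORC4 and ORC5 were at -0.21, -0.24, -0.38 and -0.29. ORC1, which is made anew in each cycle, was at -2.67, and ORC6 was at -1.37. RFC5, a subunit of the clamp loader, was the single member above the control, at 0.18. Some calls rest on probe sets shared between transcripts. GINS2 (-2.30) was at -0.18 and TIMELESS (-2.26) at -0.58 when such probe sets were left out.

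Nucleotide supply and recombination genes followed in smaller numbers. Of 18 genes of nucleotide supply, 5 were at least 2-fold lower (TYMS, RRM2, TK1, RRM1 and DTYMK, the first with signals of 11693.8, 3374.0 and 2758.1) and none was 2-fold higher, and the median was -0.75. DTYMK was at -1.11, or -0.46 as the mean of its probe sets. Purine synthesis members such as GART (-0.38) and ATIC (-0.30) were closer to the control, and CTPS1, which makes CTP, was at 0.96 with siRNA 2 and -0.18 with siRNA 1. Homologous recombination and Fanconi anemia genes were lower in 16 of 25 cases with a median of -1.23, led by the helicase BLM (-2.35) and RAD51AP1 (-2.34). BRCA1 read 652.5, 107.4 and 207.9 on the control, siRNA 1 and siRNA 2 arrays, a log2 fold change of -1.65 with siRNA 2. Over these first 5 cell cycle lists, 156 of 198 genes were at least 2-fold lower with siRNA 2 and none was higher.

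**Figure D1:**
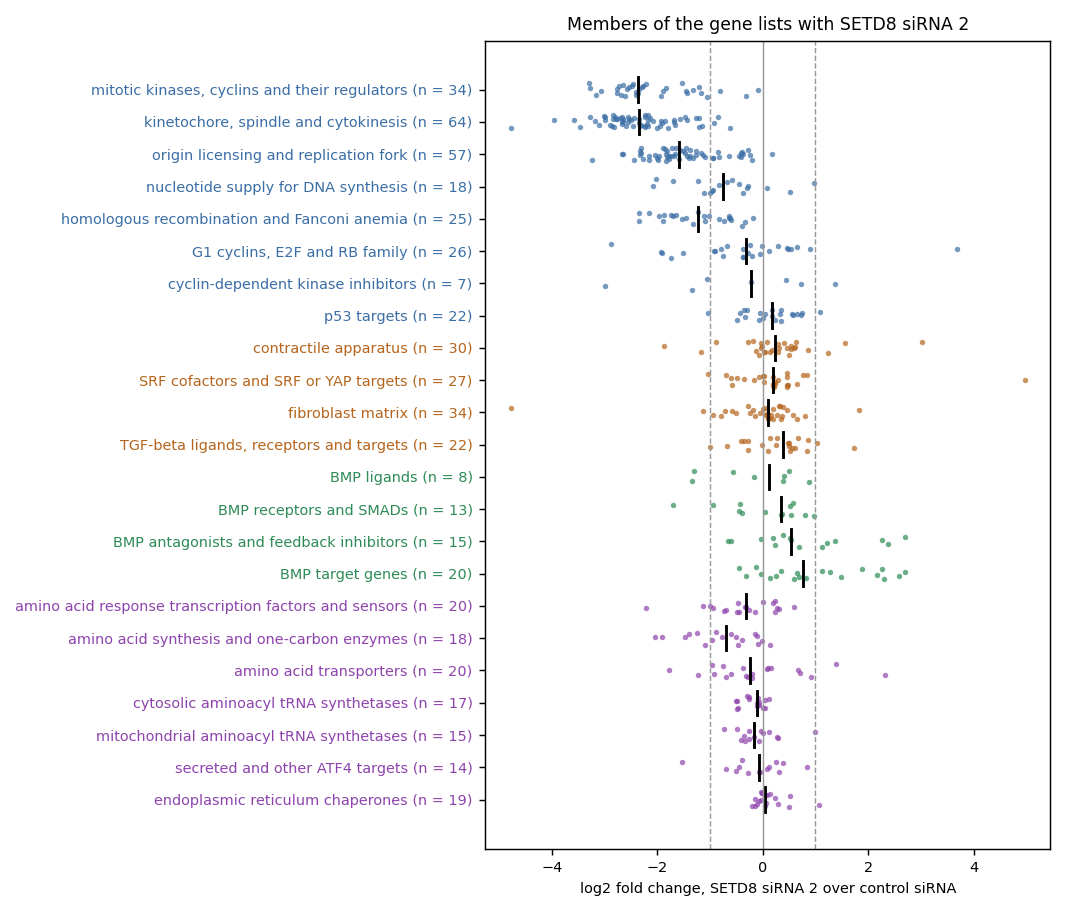
Log2 fold change of every tested member of the gene lists with SETD8 siRNA 2 over the control siRNA, 1 array each. Each point is a gene, black bars are list medians, dashed lines mark 2-fold, and colours separate the cell cycle (blue), contractile (brown), BMP (green) and amino acid response (purple) lists. The first 2 lists centre on -2.36 and -2.35, whereas the BMP target genes centre on 0.76.

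The regulators of G1 did not move as a block. In the list of G1 cyclins, E2F and RB family members, 5 of 26 were at least 2-fold lower, 1 was higher and the median was -0.32. The lower share was 19.2%, against 6.65% of all genes, and the higher share 3.85%, against 4.46%. The lower ones were E2F8 (-2.87), RBL1 (-1.93), E2F2 (-1.90), CCNE2 (-1.75) and LIN9 (-1.51), although 1 of the 3 E2F2 probe sets was at 1.46. The exception was CCND2, cyclin D2, a partner of CDK4 and CDK6 in G1, which read 414.5 in the control, 751.7 with siRNA 1 and 5348.7 with siRNA 2. The siRNA 2 value was far above both others, all 4 CCND2 probe sets were at least 2-fold higher (log2 fold changes of 1.64 to 3.69), and the difference from siRNA 1 was 7.12-fold. CCND1 went from 12616.0 to 23466.9 with siRNA 2 (0.90, against 0.27 with siRNA 1).

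Cyclin-dependent kinase inhibitors and p53 targets gave little common direction with siRNA 2. CDKN1A, the inhibitor p21, read 6063.7, 15759.9 and 8246.7 on the control, siRNA 1 and siRNA 2 arrays, a log2 fold change of 0.44 with siRNA 2 and 1.38 with siRNA 1. CDKN2B, the inhibitor p15, read 742.7, 7373.0 and 1230.0. Both genes were thus closer to the control with siRNA 2 than with siRNA 1. CDKN2A was at 1.37 (0.79 as the mean of its probe sets), and CDKN1B and CDKN1C, which encode p27 and p57, were at -1.33 and -1.05 (-0.48 for CDKN1C as the mean of its probe sets). CDKN3, a phosphatase grouped with the inhibitors by its name and made mainly in dividing cells, was at -2.99. Of 22 p53 targets 1 was higher (PLK3, 1.09, or 0.37 as the mean of its probe sets) and 1 lower (PLK2, -1.05), and the median was 0.18, against 2 higher, none lower and a median of 0.30 with siRNA 1. Each siRNA 2 count was 4.55% of the p53 list, near the 4.46% of all genes higher and 6.65% lower.

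The promoter letters differed between the lower lists. Promoter windows, from 250 bases before to 50 after the first start listed in RefSeq, were matched for 10031 of the genes tested. They were searched on both strands for the CHR (TTTGAA or TTCGAA), the CCAAT box (CCAAT), the E2F site (TTTGGCGC, TTTCGCGC or TTTCCCGC), the C/EBP-ATF element of ATF4 target genes (TTGCATCA), the TATA box (TATAAA) and the CArG box. A CHR was present in 11.7% of all windows, in 14 of 26 windows of the mitotic kinase list and 43 of 57 of the kinetochore list, but in 3 of 49 of the licensing list. E2F letters were found in 4.52% of all windows, in 2 of 26 and 6 of 57 of the mitotic lists, and in 23 of 49 of the licensing list. CCAAT, which at 5 letters matched 36.8% of all windows, was in 17 of 26, 38 of 57 and 28 of 49.

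Seen from the letters, genes with a CHR were at least 2-fold lower with siRNA 2 in 13.5% of cases and genes without one in 5.42%. Outside the cell cycle lists these shares were 8.54% and 4.66%, and with a CHR and a CCAAT box together 46 of 447 genes (10.3%) were lower against 4.85% of the rest. For an E2F site outside those lists the shares were 5.64% and 5.07%. The letters did not go with 1 direction in every gene, since the 3 contractile genes that were at least 2-fold higher (SYNPO2, LMOD1 and CNN1) each had a CHR and a CCAAT match as well. A match is a description of the sequence and says nothing of what binds there.

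**Figure D2:**
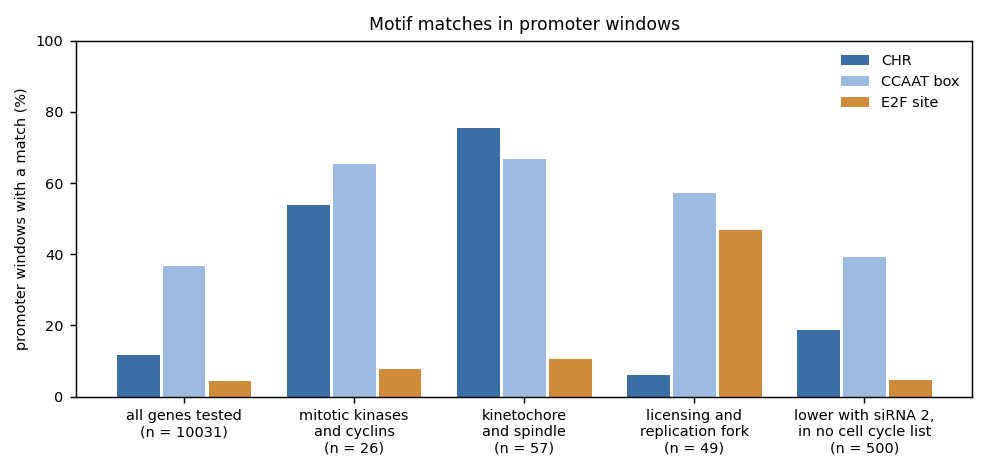
Share of promoter windows (%, vertical axis from 0) with a CHR, a CCAAT box or an E2F site, for all genes tested, 3 cell cycle lists, and the genes at least 2-fold lower with SETD8 siRNA 2 that are in no cell cycle list. Under each group n is the number of windows. The CHR stands out in the mitotic lists and the E2F site in the licensing list.

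The contractile side was narrow. Of 30 genes of the contractile apparatus tested, 3 were at least 2-fold higher with siRNA 2, 2 were lower, and the median was 0.23. The higher share was 10.0%, against 4.46% of all genes, and the lower share of 6.67% matched the 6.65% of all genes. With siRNA 1 the same list had 1 higher and 4 lower and a median of -0.29. SYNPO2, an actin-bundling protein of the Z-disc and of stress fibres, gave 207.2 in the control, 86.8 with siRNA 1 and 1686.3 with siRNA 2, and 6 of its 7 probe sets were at least 2-fold higher with siRNA 2. CNN1, smooth muscle calponin, gave 2442.2, 1084.1 and 5749.6, and LMOD1, a smooth muscle leiomodin that nucleates actin, gave 265.5, 152.4 and 780.7. In each of these 3 genes the siRNA 2 array was highest and the siRNA 1 array lowest. Among the others, the bright genes TAGLN (14190.0, 6804.4 and 22028.5) and ACTA2 (15225.9, 16060.5 and 27518.5) were above the control with siRNA 2 but under 2-fold, at log2 fold changes of 0.63 and 0.85.

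The lower members were PDLIM3, an alpha-actinin-binding protein, at -1.87 (242.8, 602.4 and 66.5) and MYH10, a non-muscle myosin heavy chain, at -1.16 (5512.5, 2875.9 and 2463.2). Markers of smooth muscle and pericytes gave a mixed result, with 9 of 11 past the filter, 4 at least 2-fold higher (CNN1, LMOD1, the intermediate filament synemin SYNM at 1.64, and RGS5 at 1.70, or 0.76 as the mean of its probe sets) and 1 lower (the potassium channel gene KCNJ8, -2.74). MYH11, the smooth muscle myosin heavy chain, stayed dim on all arrays (59.0, 48.8 and 54.0), and DES did not pass the filter. Among the 9 markers past the filter the higher and lower shares were 44.4% and 11.1%, against 4.46% and 6.65% of all genes. The summed signal of these markers was 5264.1 in the control, 5870.5 with siRNA 1 and 10537.0 with siRNA 2.

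A pair of contractile-programme genes had very large increases. ANKRD1, a stretch-responsive cofactor of striated muscle and a target of YAP and SRF, read 55.1 in the control, 72.0 with siRNA 1 and 1725.7 with siRNA 2. It was 31.3-fold above the control and 24.0-fold above siRNA 1. ACTC1, which was in no list, gave 64.1, 60.4 and 640.5, or 9.99-fold above the control. Both genes are represented by 1 probe set, and for both the control and siRNA 1 arrays were close together. The rest of the SRF and YAP list did not share this change, since ANKRD1 was the single member at least 2-fold higher of 27, 1 was lower (the SRF cofactor MRTFB, -1.03, which was just under 2-fold with other scalings) and the median was 0.20. Each count was 3.70% of the list, against 4.46% of all genes higher and 6.65% lower. The YAP targets CCN2 and CCN1 read 25694.9 and 17833.2 with siRNA 2 against 14338.6 and 15567.3 in the control.

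CArG letters were found in 1.10% of all windows and in 4 of 27 of the contractile list (ACTG2, CNN2, MYLK and TPM4), with log2 fold changes of 0.54, -0.07, 0.31 and -0.27. Among all 110 genes with a CArG match, 10 were at least 2-fold higher (9.09%, against 4.14% of genes without), and ACTC1 was one of them.

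Matrix and TGF-beta genes stayed near the control apart from a few. Of 34 fibroblast matrix genes, 1 was at least 2-fold higher, 2 were lower and the median was 0.10, against 4 higher and 4 lower with siRNA 1. With siRNA 2 these were 2.94% and 5.88% of the list, no more than the 4.46% and 6.65% of all genes. POSTN, the matricellular protein periostin, read 11197.1 in the control, 24523.5 with siRNA 1 and 412.1 with siRNA 2, so the SETD8 siRNA arrays lay on opposite sides of the control. It was 27.2-fold lower with siRNA 2, on a bright probe set, and all 4 of its probe sets were at least 2-fold lower (-5.65 to -1.84). The other lower gene was the proteoglycan BGN (-1.14, or -0.62 as the mean of its probe sets), and the higher one was the fibrillar collagen COL11A1, at 1.82 with 3 of 3 probe sets past 2-fold. In the TGF-beta list 2 of 22 were higher, TGFB2 (1.72) and SKIL (1.04), 1 was lower, TGFBR3 (956.2 in the control and 476.8 with siRNA 2), and the median was 0.38. The higher and lower shares of the TGF-beta list with siRNA 2 were 9.09% and 4.55%, against 4.46% and 6.65% of all genes. With siRNA 1 this list had 5 higher and 1 lower. SKIL and TGFBR3 were so close to 2-fold that other settings put them under it, at 0.76 for SKIL and -0.94 to -0.98 for TGFBR3.

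The BMP side held the more frequent increases. Of 20 BMP target genes 9 were at least 2-fold higher with siRNA 2 (45.0%, against 4.46% of all genes) and none was lower, with a median of 0.76. Of 15 antagonists and feedback inhibitors 6 were higher (40.0%) and none lower, with a median of 0.54. The lists share NOG, SMAD6, SMAD7 and BAMBI. With the mean of probe sets 6 of 17 targets were at least 2-fold higher, and with shared probe sets left out 4 of 14. ID1, ID2 and ID3 have only shared probe sets, so they are missing from the latter count. For the antagonist list the counts were 5 of 14, with 1 lower, and 4 of 12. With siRNA 1 the target list had 4 higher and 2 lower and a median of 0.26, and the antagonist list had 2 higher and 1 lower and a median of -0.15.

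The ID genes, direct BMP targets whose products block basic helix-loop-helix factors, all had their highest signal with siRNA 2. ID1 read 1649.8 in the control, 1764.1 with siRNA 1 and 9883.9 with siRNA 2, which is 5.99-fold above the control. ID3 read 1492.5, 1778.3 and 5529.8, and ID2 read 2546.3, 1034.1 and 7136.9. For ID1 and ID3 the control and siRNA 1 were alike in size, whereas ID2 was below the control with siRNA 1. ID4 was dimmer, at 82.0, 64.0 and 406.0, with 3 of its 5 probe sets at least 2-fold higher and none below the control. The other targets past 2-fold were PRRX2 (1.27), SMAD6, SMAD7, NOG and ATOH8. The last is uncertain: its shared probe set gave 2.16 and without shared probe sets the value was -0.51. MSX1 (0.25), MSX2 (-0.13), GATA6 (-0.03) and SNAI2 (0.14), which BMP also regulates, were near the control.

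Among antagonists, NOG (noggin, which binds BMP ligands outside the cell) had the widest separation, at 689.6 in the control, 135.4 with siRNA 1 and 4505.9 with siRNA 2. It was 6.53-fold above the control with siRNA 2 and below the control with siRNA 1. BMPER, a secreted BMP-binding protein, read 161.6, 117.5 and 841.8, and FSTL3, which binds activins, read 232.0, 190.1 and 601.4. For both, siRNA 2 alone stood clear of the control. The intracellular inhibitor SMAD7 read 348.4, 914.7 and 1661.7, above the control on both SETD8 siRNA arrays, and SMAD6 and NBL1 were at 1.12 and 1.22. GREM1, a bright antagonist of fibroblasts, was at -0.60 (25769.7 in the control and 16979.4 with siRNA 2), and FST was at -0.65.

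Ligands and transducers went differently from the targets. SMAD1 read 2129.9 in the control, 6164.7 with siRNA 1 and 655.8 with siRNA 2, so it was 3.25-fold lower with siRNA 2 and higher with siRNA 1, and all 3 probe sets were at least 2-fold lower with siRNA 2. It was the single member of 13 receptors and SMADs past 2-fold (7.69%, near the 6.65% of all genes lower), in a list with a median of 0.35. RGMB, a BMP co-receptor, was just under 2-fold at 0.98 (-1.91 with siRNA 1), and SMAD9 was at 0.36 (-2.04 with siRNA 1). Of 8 ligands tested 2 were lower, GDF5 (-1.34) and BMP4 (-1.30, with signals of 407.3, 910.0 and 165.7), and none was higher. BMP2 read 1034.5, 17049.2 and 1370.8, so its 0.41 with siRNA 2 stood beside 4.04 with siRNA 1. The ligand median of 0.11 turned to -0.45 with a filter at the 75th percentile of signal and to -0.08 with none.

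**Figure D3:**
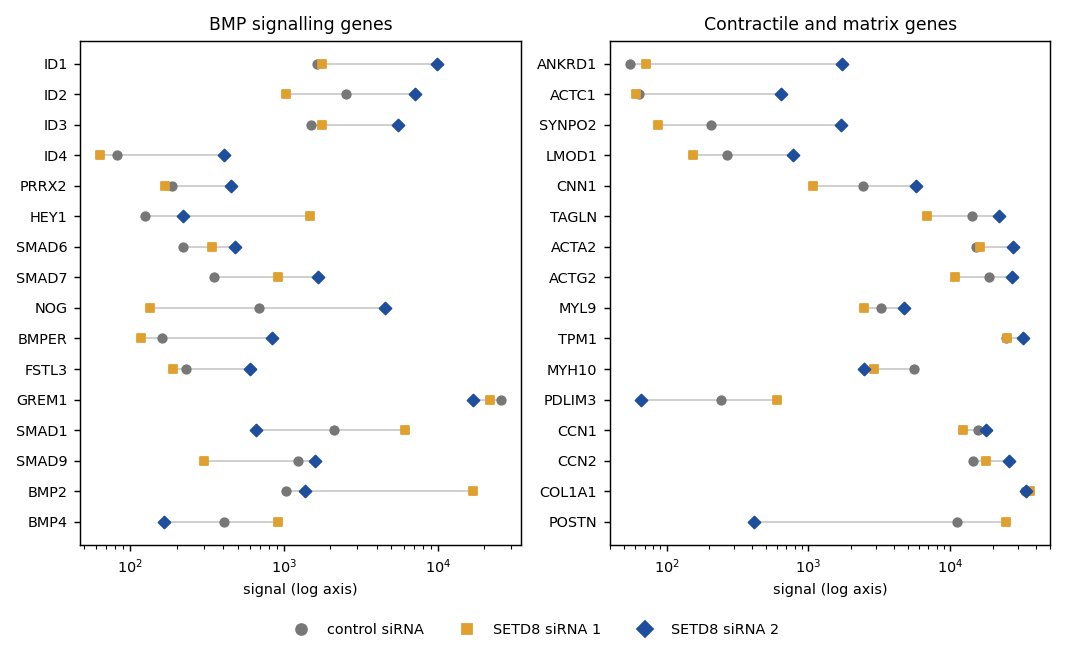
Deposited signal (log axis) of BMP signalling genes (left) and of contractile and matrix genes (right) on the control siRNA, SETD8 siRNA 1 and SETD8 siRNA 2 arrays, 1 array each. ID1 to ID4, NOG, BMPER, ANKRD1, ACTC1 and SYNPO2 are highest with SETD8 siRNA 2, and SMAD1 and POSTN are lowest with it.

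On the amino acid response side, the lower calls were most frequent among synthesis genes. Of 18 genes of amino acid synthesis and one-carbon metabolism, 6 were at least 2-fold lower with siRNA 2 (33.3%, against 6.65% of all genes), none was higher, 17 were below 0 and the median was -0.69. With siRNA 1 no member passed 2-fold in either direction and the median was -0.42. ASNS, asparagine synthetase and a standard readout of ATF4, read 6732.5 in the control, 4444.2 with siRNA 1 and 1628.2 with siRNA 2, which is 4.13-fold lower with siRNA 2. PHGDH, which opens the serine route, read 1359.2, 771.6 and 362.5, and PSAT1, the next enzyme, read 12671.7, 6881.3 and 4585.3. In these 3 genes the siRNA 2 array was lowest and the siRNA 1 array in between. PSPH, the last enzyme of the route, was at -1.24, although the mean of its probe sets was -0.63.

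Mitochondrial one-carbon enzymes downstream were at -1.09 (ALDH1L2), -0.96 (MTHFD2) and -0.89 (SHMT2). CTH, which makes cysteine from cystathionine, read 657.9, 1223.8 and 248.5, below the control with siRNA 2 and above it with siRNA 1. Other members were less changed, with GOT1 at -0.50, PYCR1 at -0.40 and ASS1 at 0.15.

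The regulators gave 2 of 20 at least 2-fold lower (10.0%, against 6.65% of all genes), none higher and a median of -0.33. DDIT4, an inhibitor of mTORC1 induced by stress, read 3181.9 in the control, 4343.2 with siRNA 1 and 689.7 with siRNA 2 (4.61-fold lower with siRNA 2). EIF4EBP1, a translation repressor that is an ATF4 target, was at -1.14. TRIB3, a pseudokinase that feeds back on ATF4, was just under 2-fold at -0.99 and at 0.76 with siRNA 1, and DDIT3 (CHOP) was at -0.73 and 0.95. The ATF4 transcript itself read 13809.9, 12136.7 and 9837.5, or -0.49 with siRNA 2. ATF3 and CHAC1, which are induced through the same pathway, were slightly above the control at 0.23 and 0.60.

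Amino acid transporters split, with 2 of 20 higher and 2 lower and a median of -0.24. Each count was 10.0% of the list, against 4.46% of all genes higher and 6.65% lower. The cationic transporter SLC7A2 read 906.6, 1486.7 and 265.7, with 3 of 3 probe sets at least 2-fold lower with siRNA 2. SLC7A11, the cystine importer, read 8674.3, 4332.1 and 3718.5 and was thus lower on both SETD8 siRNA arrays. The higher transporters were SLC1A1, a glutamate and cysteine carrier, with 219.9, 222.8 and 1091.3, and SLC6A6, the taurine carrier, at 1.40 with 1 of its 5 probe sets at -1.51. The leucine exchanger SLC7A5 and its partner SLC3A2 were at -0.75 and -0.69.

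Aminoacyl tRNA synthetases, many of which also answer to ATF4, had no member past 2-fold with siRNA 2. The 17 cytosolic ones lay between -0.51 (YARS1) and 0.13 (HARS1) with a median of -0.10, and the 15 mitochondrial ones had a median of -0.17. Among 14 secreted and other ATF4 targets, VLDLR (-1.54) was the single one past 2-fold (7.14%, near the 6.65% of all genes lower). GDF15 read 1642.9, 22452.5 and 1748.5, near the control with siRNA 2. Chaperones of the endoplasmic reticulum had a median of 0.04, HSPA5 being at 0.04, and 1 of 19 was higher (DNAJB9, 1.07, or 0.99 as the mean of its probe sets). That was 5.26% of the chaperone list, near the 4.46% of all genes higher. C/EBP-ATF letters were rare, in 0.538% of windows. They were present in 5 of 14 windows of cytosolic synthetases (AARS1, CARS1, IARS1, NARS1 and TARS1) and 2 of 13 of the synthesis list (GOT1 and BCAT1), but not in the windows of PHGDH, PSAT1 or CTH. A single exact spelling was searched, so a gene without a match may still carry another form of the element. Of the 54 genes with a match, 3 were at least 2-fold lower (5.56%), close to the 6.36% of genes without one.

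**Figure D4:**
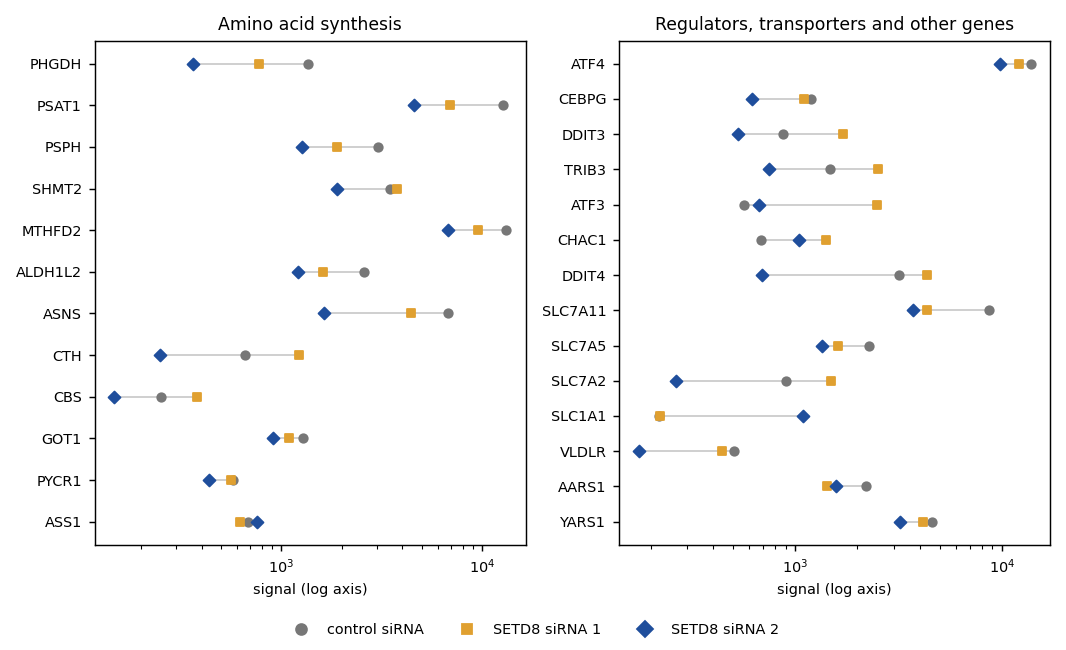
Deposited signal (log axis) of amino acid synthesis genes (left) and of regulators, transporters and other genes of the amino acid response (right) on the 3 arrays. ASNS, PHGDH, PSAT1, CTH, DDIT4 and SLC7A2 are lowest with SETD8 siRNA 2, whereas SLC1A1 is highest with it.

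Large changes that were absent with the other SETD8 siRNA were counted as genes at least 4-fold from the control with siRNA 2 and within 1.5-fold of the same control array with siRNA 1. There were 27 such genes higher (0.219% of genes tested) and 31 lower (0.252%), while 70.9% of all genes lay within 1.5-fold with siRNA 1. They made up 28.7% of the 94 genes at least 4-fold higher and 15.4% of the 201 at least 4-fold lower. Of the 94, a further 46 were also at least 2-fold higher with siRNA 1, 8 were between 1.5-fold and 2-fold higher, and 13 were over 1.5-fold lower. For the 201 these numbers were 146, 12 and 12. Between siRNA 2 and siRNA 1, 20 of the 27 and 31 of the 31 were at least 4-fold apart, a gap that the selection largely sets. At the limit of 4-fold, SELENOW (2.06) was just inside and ATCAY (1.94) just outside on the higher side, and BAALC (-2.04) and EPHX1 (-1.98) on the lower side.

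None of the 58 genes was in a cell cycle list. Those lists hold only 253 of the 12307 genes tested, so their absence from a set of 58 says little. ANKRD1 was in a contractile list, ID1, ID4 and BMPER were in BMP lists, and SLC1A1 and DDIT4 in amino acid response lists. Many were dim, with 16 of the 27 at a control signal under 100 and 7 of the 31 at or under the floor with siRNA 2. The filter takes the mean over all 3 arrays, siRNA 2 included. Some of the 27, such as ADIRF, DNAJC6 and EFHD1, were under 42.0 on the control and siRNA 1 arrays. They passed the filter only through the siRNA 2 signal that is counted here, so the count of 27 partly follows from the filter. A few of the higher genes were bright. WFDC1, a secreted protease inhibitor of stromal cells, read 4022.9 in the control, 5235.1 with siRNA 1 and 19440.5 with siRNA 2, and the WNT ligand WNT16 read 765.5, 1028.3 and 4026.5 with both probe sets at least 2-fold higher. CAVIN4, a caveolar protein of muscle, read 229.0, 192.1 and 1522.3. LGMN, a lysosomal cysteine protease, read 376.9, 292.9 and 1731.6. That the control and siRNA 1 arrays differed by less than 1.5-fold and siRNA 2 lay above both follows from how the set was selected.

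Dimmer genes of the higher set were ADIRF, an adipogenic regulator (22.3, 20.2 and 548.6), DNAJC6, the clathrin-uncoating cofactor auxilin (24.7, 21.4 and 343.6), the teneurin TENM1 (93.8, 87.7 and 1191.2) and EFHD1, a mitochondrial calcium-binding protein (31.4, 32.9 and 327.8). TENM1 and DNAJC6 each had a second probe set near the control, at 0.14 and 0.21. GHR, the growth hormone receptor, SCG2, secretogranin, and HSD17B6, a steroid dehydrogenase, were at 2.16, 2.20 and 2.17.

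The lower set was led by genes at or near the floor with siRNA 2. VASH2, a tubulin carboxypeptidase, read 175.5 in the control, 200.5 with siRNA 1 and 11.7 with siRNA 2, with a log2 fold change of -3.91. DACH2, a transcriptional cofactor, read 161.5, 182.2 and 10.7 and was at least 13.8-fold lower. INHBE, an activin subunit, read 225.1, 214.4 and 16.7. The likeness of the control and siRNA 1 signals follows from the selection. VASH2 had a second probe set at least 2-fold lower and its last at 0.04.

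Other genes of the lower set were brighter or were measured by several probe sets. HHIP, the antagonist of hedgehog ligands, read 220.9, 202.9 and 25.7, and all 4 of its probe sets were at least 2-fold lower. TSLP, an alarmin cytokine, read 1636.2, 1894.5 and 298.5. TNFRSF19, a receptor of the tumour necrosis factor family, read 4299.8, 3838.6 and 951.9, with 3 of 3 probe sets at least 2-fold lower. The junctional adhesion molecule JAM2 (405.2, 444.2 and 61.9) and the purine transporter SLC43A3 (605.0, 815.5 and 127.5) had 2 of 2. TNFRSF19, WNT16, WFDC1 and KMT5C were named after their values were seen. KMT5C, which adds further methyl groups to the lysine that SETD8 methylates first, read 92.0, 66.1 and 16.2, with a second, dim probe set at 0.00.

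Several of the lower set did not agree across probe sets. HBE1, embryonic globin, read 191.3, 142.5 and 8.4 on the probe set used, but its dimmer one was at 3.05. LPAR2, PLCL2, PCDH10 and CERS3 likewise had 1 probe set above the control, at 2.34, 1.23, 0.93 and 0.87. ESR1, the estrogen receptor, was at -2.23 on the brightest of 9 probe sets, with 4 at least 2-fold lower and 1 at least 2-fold higher, and at 1.54 when shared probe sets were left out.

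**Figure D5:**
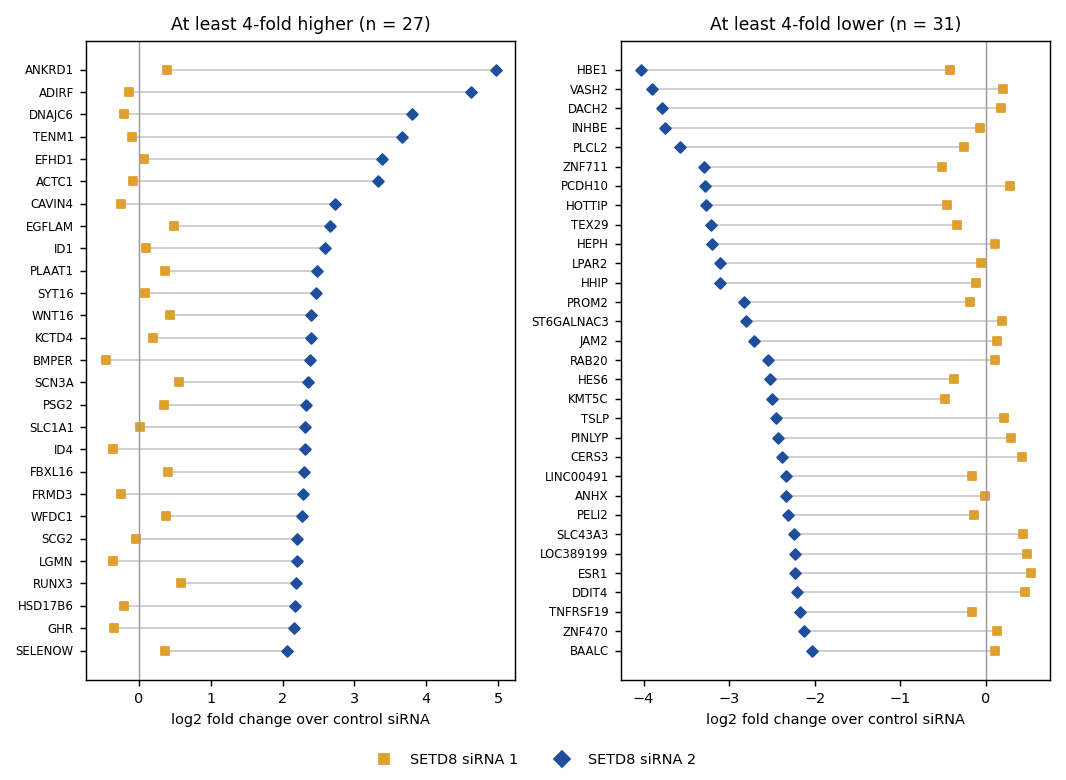
Log2 fold change over the control siRNA, with SETD8 siRNA 1 (squares) and SETD8 siRNA 2 (diamonds), of the 27 genes at least 4-fold higher (left) and the 31 at least 4-fold lower (right) with siRNA 2 and within 1.5-fold with siRNA 1. Both comparisons use the same control array, and the selection itself sets where the symbols lie.

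A smaller number of genes were at least 4-fold from the control with siRNA 2 and at least 2-fold the other way with siRNA 1. There were 9 such genes higher with siRNA 2 (0.0731%), namely TMEM178B, PNMA2, SYNPO2, TSPAN10, NOG, KCNQ5, ATP10A, ACKR4 and COBLL1, and 8 lower (0.065%), namely POSTN, ITGB8, CRIP1, TNFAIP6, TFPI2, IL1B, ALDH1A3 and COL5A3. TMEM178B, a membrane protein, read 56.3, 27.3 and 2192.8 and was 80.3-fold higher with siRNA 2 than with siRNA 1. ATP10A, a phospholipid flippase, was brighter (565.8, 198.5 and 3098.1), with 2 of 3 probe sets at least 2-fold higher with siRNA 2. TFPI2, a secreted protease inhibitor, read 8445.0, 25348.5 and 1428.4, and TNFAIP6, a hyaluronan-binding protein, 729.8, 1964.1 and 83.4. Both have 2 probe sets, all at least 2-fold lower with siRNA 2. PNMA2 (30.2 and 9.9) and ACKR4 (40.5 and 12.4) were under 42.0 on the control and siRNA 1 arrays. They passed the filter only through siRNA 2.

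The largest changes with siRNA 2 regardless of siRNA 1 included further genes outside these groups. On the lower side, SOX11, a transcription factor of progenitor cells, read 1359.9 in the control, 565.2 with siRNA 1 and 43.3 with siRNA 2, with 3 of 3 probe sets at least 2-fold lower. NPTX1, neuronal pentraxin, read 7532.8, 4656.2 and 661.8. B3GNT5, a glycosyltransferase, read 438.1, 209.9 and 1.0 and was at least 37.4-fold lower, although 1 of its 3 probe sets was at 0.28. SOX11 and NPTX1 were far lower with siRNA 2 than on either other array. LMNB1, which encodes lamin B1 and is lost in senescent fibroblasts, read 4162.8, 450.2 and 410.5 and so was low with both SETD8 siRNAs. TOX, an HMG-box protein, its divergent transcript TOX-DT, and GAS2L3, a cytoskeletal protein of the midbody, were also low with both, at -3.39, -3.60 and -3.35 with siRNA 2. DSG2, a desmosomal cadherin, was at -3.50. CYP3A4, a cytochrome, was at -3.59 on its brightest probe set, but 2 of its 5 probe sets were at least 2-fold higher (1.06 and 1.12).

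On the higher side, EHF, an epithelial ETS factor, had the highest value of all (13.9, 4156.5 and 596.9, a 42.9-fold increase with siRNA 2), although 1 of its 6 probe sets was at least 2-fold lower. DNER, a Notch ligand (83.9, 359.8 and 1111.6), the secreted protein SCUBE3 (1040.3, 2522.3 and 9123.1) and PODXL, podocalyxin (143.7, 292.8 and 1285.5), were above the control on both SETD8 siRNA arrays and highest with siRNA 2. CBLN2 and MRGPRX3 were of similar size with both, at 3.69 and 3.17 with siRNA 2 and 4.23 and 3.43 with siRNA 1. Their control signals were 18.6 and 2.6, the second of them under the floor.

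Inflammatory genes, by contrast, were far less changed with siRNA 2 than with siRNA 1. Of 19 cytokines and chemokines, 2 were at least 2-fold higher with siRNA 2 and 4 lower (median -0.07), against 14 higher and 1 lower with siRNA 1 (median 4.12). The siRNA 2 counts were 10.5% and 21.1% of the list, against 4.46% of all genes higher and 6.65% lower. IL6 read 752.6, 14925.4 and 1193.0, and CXCL8 1779.7, 30857.2 and 4185.5. Of 29 interferon-stimulated genes 7 were higher with siRNA 2 and 20 with siRNA 1, with a median of 0.38 with siRNA 2. MX1, an antiviral GTPase, read 24.5, 417.0 and 209.7. Among 23 genes of the immediate early response and of feedback on MAP kinase, 5 were at least 2-fold higher with siRNA 2, namely DUSP4, EGR3, DUSP1, SPRY4 and SPRY2. This was 21.7% of the list, against 4.46% of all genes, and none was lower. The median was 0.11 against 1.15 with siRNA 1.

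Replication-dependent histone transcripts were at least 2-fold higher in 11 of the 22 tested and lower in 1, with a median of 0.99. Of all genes, 4.46% were higher and 6.65% lower. With siRNA 1, 5 of these histone genes were higher and none lower. With no filter on signal, 13 of 38 were higher with siRNA 2, 5 were lower and the median was 0.31. Histone genes are near copies of one another, and probes may read several. H2AC6 read 2469.5, 4030.1 and 7365.5. For scale, none of 36 cytosolic ribosomal protein genes was past 2-fold, and they lay between -0.22 and 0.15 with siRNA 2. Sterol synthesis and uptake genes had a median of 0.04 with 1 of 16 lower (INSIG1, -1.12), which is 6.25%, near the 6.65% of all genes.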

How the data were processed

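Total RNA of the 3 IMR-90 cultures was extracted with RNeasy and measured on 1-colour Affymetrix arrays from biotin-labelled cRNA, per the labels' protocols. The authors deposited a linear intensity for each probe set. Per the submitters' processing notes it was made by MAS5, whose version was not given in the sources used here. The method brings arrays to a common level, and the mean signal without the extreme 2% at either end was 497 on each array, with medians of 46.2, 45.3 and 44.9 (control, siRNA 1, siRNA 2), so the values were not rescaled. A shift common to all genes would not be seen, low signals may be background, and the highest, up to 36667, may be compressed.

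Of 54613 probe sets, 41091 had 1 symbol in GEO's platform annotation, 1801 had several and 11721 had none listed. For 41037 the gene identifier was found in RefSeq (GRCh38.p14) and the symbol was taken from there, whether or not it differed. A gene was represented by its brightest probe set by mean log2 signal, after the floor of 11.7 (25th percentile), and kept from the median over all probe sets upward. Fold changes are differences of log2 signals, counted at 2-fold or 4-fold. Both SETD8 siRNA comparisons share the control array.

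The members, the 34 gene lists and the comparisons were chosen with earlier results of these data known. Named genes were KMT5A, the 20 largest changes in each direction, list members, the 20 genes per direction most different between the SETD8 siRNAs among those large with siRNA 2 alone, and those of opposite direction. Genes at the 4-fold limit and WNT16, WFDC1, TNFRSF19 and KMT5C lie outside that rule. Alternatives were other scalings, a pseudocount of 16, other filters, other probe set rules and other fold limits. Python 3.11.15, numpy 2.4.6, pandas 2.3.3 and matplotlib 3.10.9 were used.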

Additional observations from a re-analysis of the deposited data

Results flagged for a closer look

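For 17 genes the SETD8 siRNAs moved in opposite directions from the shared control array, at least 4-fold with siRNA 2 and at least 2-fold with siRNA 1. With 1 array per siRNA that difference was not tested. The selection itself sets a wide gap between the SETD8 siRNAs, so its size is a description. As log2 differences of siRNA 2 minus siRNA 1, the genes higher with siRNA 2 were TMEM178B (6.33), PNMA2 (5.36), NOG (5.06), TSPAN10 (4.75), KCNQ5 (4.32), SYNPO2 (4.28), ACKR4 (4.14), ATP10A (3.96) and COBLL1 (3.48). The genes lower with siRNA 2 were IL1B (-8.48), POSTN (-5.90), ITGB8 (-4.78), TNFAIP6 (-4.56), CRIP1 (-4.54), TFPI2 (-4.15), ALDH1A3 (-3.71) and COL5A3 (-3.24).

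Probe sets with no single gene name were outside every comparison. Of 4083 such probe sets past the filter on signal, 22 were higher and 30 lower by 4-fold or more with siRNA 2 than in the control. They stay unnamed here.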

How the results depend on the processing

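Scaling of the arrays and the pseudocount kept the counts of genes at least 2-fold higher or lower, and of those large with siRNA 2 alone, within 1.5 times their main values, and under all 7 alternatives of scaling, floor, filter and probe sets the medians of the cell cycle (-1.54 to -1.37), contractile (0.11 to 0.27), BMP (0.24 to 0.45) and amino acid response (-0.17 to -0.10) lists kept their sign. Counts followed the filter and the fold limit by construction. The 549 genes at least 2-fold higher became 1317 with no filter, 217 with a filter at the 75th percentile, 1427 at 1.5-fold and 174 at 3-fold, and the 818 lower became 1614, 348, 1812 and 361. The 27 genes higher with siRNA 2 alone became 76 with no filter, 7 with the stricter filter, 47 from 3-fold upward and 13 when siRNA 1 had to lie within 1.2-fold. The 31 lower became 49, 6, 65 and 18, and also 47 with siRNA 1 within 2-fold and 15 with all probe sets of a gene averaged. Among single genes ATOH8 (-0.51) and ESR1 (1.54) reversed with shared probe sets left out, where another probe set stands for the gene. Of 332 named or listed genes past 2-fold, 36 were under it in at least 1 alternative, 24 of them with the mean of probe sets. No paired analysis was possible because each siRNA has 1 array and the labels give no replicate numbers.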

Other observations

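Most genes past 2-fold with SETD8 siRNA 2 lay outside the lists described, 493 of the 549 higher and 626 of the 818 lower. Of the 20 largest increases, several not yet described were dim in the control. PNMA2, a paraneoplastic antigen, read 30.2 in the control, 9.9 with siRNA 1 and 481.1 with siRNA 2, with its second probe set at 0.00. IL21R, a cytokine receptor, read 26.9, 77.7 and 285.2, and GCNT2, a branching glycosyltransferase, 16.1, 43.8 and 167.0. The phosphodiesterase PDE11A read 15.5, 25.8 and 189.5, with 1 of its 4 probe sets at -1.12, and the protocadherin PCDH1 7.0, 72.2 and 108.7. PNMA2 and PDE11A were under 42.0 on the control and siRNA 1 arrays, so they passed the filter only through siRNA 2. SPRY4-IT1, a noncoding transcript within SPRY4, read 24.0, 339.7 and 318.3, but its other probe set was at -1.79 with siRNA 2, and the mean of both was 0.97.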
